A study of Mus musculus with 11 samples.

Results

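MaSC/basal cells and luminal progenitor (LP) cells are the 2 epithelial populations of the mouse mammary gland that were set against each other here by RNA-seq. The comparison rests on the libraries labelled basal and LP, 3 of each, which are 6 of the 11 RNA-seq libraries of the series. Both populations were freshly sorted from Lin- mammary cells of wild-type virgin FVB/N females given as 8 weeks old in the labels, with no transgene and no treatment. MaSC/basal cells carried CD24 with high CD29, the β1 integrin, and LP cells carried CD24 and CD61, the β3 integrin, with low CD29. Each population is therefore an enriched gate and not a pure cell type. The MaSC/basal gate holds myoepithelial cells together with the stem cells that give it its name. The authors name 3 independent samples for each sorted population. Neither they nor the labels say how many mice went into a library, so how far the spread between libraries reflects single mice is not known. They put MaSC/basal replicate 1 and LP replicate 1 in batch 1, MaSC/basal replicates 2 and 3 with LP replicate 2 in batch 2, and LP replicate 3 in batch 3, and name the original TruSeq kit for batch 1 but its v2 form for batches 2 and 3. MaSC/basal replicate 1 is labelled wild type, although its submitted library name also carries a p53 tag. The other 5 libraries of the series, 3 of mature luminal (ML) cells and 2 from culture, entered the fit, and ML levels are given where they bear on a gene.

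Mammary ducts and alveoli consist of luminal cells around the lumen and basal cells outside them. Basal cells rest on the basement membrane, include the contractile myoepithelial cells that eject milk in response to oxytocin, and contain the cells that regenerate a gland on transplantation. Luminal cells line the lumen, are sealed by tight junctions and are divided into hormone-sensing mature cells and progenitors of the milk-producing alveolar lineage, which depend on *Elf5* and carry the receptor Kit.

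Between 51368625 and 57160817 reads were assigned to genes in the MaSC/basal libraries and between 19958838 and 60517657 in the LP libraries, of which LP replicate 3 was the shallowest. Levels are given as CPM, read counts scaled to the size of each library, after TMM scaling, which corrects for RNA composition. A gene was tested when it exceeded 0.5 CPM in at least 3 of the 6 libraries, a level of 9.98 reads in LP replicate 3, and 14805 of 27179 genes passed. Log2 fold changes are MaSC/basal minus LP with their standard error (SE), and FDR is the Benjamini-Hochberg adjusted p of edgeR's quasi-likelihood test over all genes tested. A gene was called at an FDR below 0.001 with an absolute log2 fold change above 2. A value or range alone in brackets after a gene or setting is the log2 fold change.

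The markers followed the labels in every library. *Krt14*, a basal keratin, was at 4090, 4883 and 4630 CPM in MaSC/basal and 16.3, 27.4 and 16.9 CPM in LP libraries, and *Acta2*, smooth muscle actin, at 4985, 7505 and 6394 against 20.5, 98.2 and 53.7 CPM. *Elf5*, the alveolar regulator, was at 5.51, 5.73 and 4.41 CPM in MaSC/basal and 429.6, 344 and 406 CPM in LP libraries, and *Kit* at 10.8, 11.2 and 9.84 against 704, 464 and 664 CPM. The groups did not overlap for any of the 4 genes. Of these markers *Acta2* varied most among LP libraries, with LP replicate 2 the highest. *Itgb3*, which encodes the CD61 used for the LP gate, differed less (log2 fold change -1.70 ± 0.58, FDR = 0.0292), and missed an FDR of 0.05 without the filter on low counts or without each MaSC/basal library in turn or LP replicate 1 or 2 (log2 fold change -1.52 to -1.76). Of the other markers checked, *Krt5* and *Trp63*, a basal keratin and the basal factor p63, were called higher in MaSC/basal cells (7.87 and 6.61), and the luminal keratins *Krt8* and *Krt18* in LP cells (-3.55 and -5.08). The sorting markers *Itgb1*, CD29, and *Cd24a*, CD24, passed an FDR of 0.05 below the fold threshold (1.21 and -1.14). *Krt5* was not called without LP replicate 1 or 3 (7.53 to 7.72). *Trp63* was not called without the filter on low counts or without MaSC/basal replicate 1 or 2 or each LP library in turn (6.33 to 6.83). *Acta2* and *Krt5* had log2 fold changes of 7.39 and 8.50 without LP replicate 2.

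Markers of other cells were present in both populations, and none of the listed markers was at 0 in all 6 libraries. Of 18 immune genes, 5 passed the filter, and the whole list summed to 14.1 to 21.4 CPM in MaSC/basal and 18.1 to 25.6 CPM in LP libraries. Of 15 endothelial and pericyte genes, 10 were higher in MaSC/basal cells at an FDR below 0.05. *Pecam1*, for example, was at 17.98, 19.0 and 39.2 CPM against 4.05, 10.3 and 8.89 CPM, highest in MaSC/basal replicate 3, and passed that threshold except without the filter on low counts or without MaSC/basal replicate 3 or LP replicate 1 or 3 (log2 fold change 1.24 to 1.79). *Cspg4*, of pericytes, was called (4.48). The sum over this list ran from 133 to 236 CPM in MaSC/basal and from 286 to 329 CPM in LP libraries, where *Notch3* alone made up 302, 240.1 and 220.0 CPM. The 15 fibroblast and adipocyte genes summed to 645 to 966 CPM in MaSC/basal and 356 to 1480 CPM in LP libraries, with LP replicate 2 the highest. The 13 markers of hormone-sensing mature luminal cells summed to 351 to 440 CPM in MaSC/basal and 1060 to 2740 CPM in LP libraries, with LP replicate 3 the highest. The 16 red cell, glia and muscle genes summed to 22.1 to 35.2 against 137 to 176 CPM, mostly through *Mbp* in LP libraries. The 23 immediate early and heat shock genes, which respond to tissue dissociation, summed to between 10600 and 27600 CPM in MaSC/basal and between 20000 and 43500 CPM in LP libraries, so the groups overlapped. The part of these cells and of dissociation in the results that follow was not tested. In sorted bulk samples, fewer expressing cells and less RNA per cell cannot be told apart.

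In all, 1471 genes (9.94% of those tested) were called higher in MaSC/basal cells and 1040 genes (7.02%) were called higher in LP cells. At an FDR below 0.05 whatever the fold change, 29.9% of genes were higher in MaSC/basal cells, 28.1% were higher in LP cells, and the median log2 fold change of all genes was -0.002. In the gene lists below, members called are read against the 9.94% and 7.02% of all genes. The lists were written with earlier results of these data known, so a share above these may come from that choice. Of the 1605 tested genes on any list, 352 were called higher in MaSC/basal and 243 in LP cells, both above the shares of all genes. Most genes described were taken among those whose libraries do not overlap between the groups, so the lack of overlap given beside them is a description. Where another setting or the loss of 1 library ended a call or moved a called value by over 1.5 times, the values are given at the end of the paragraph.

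**Figure D1:**
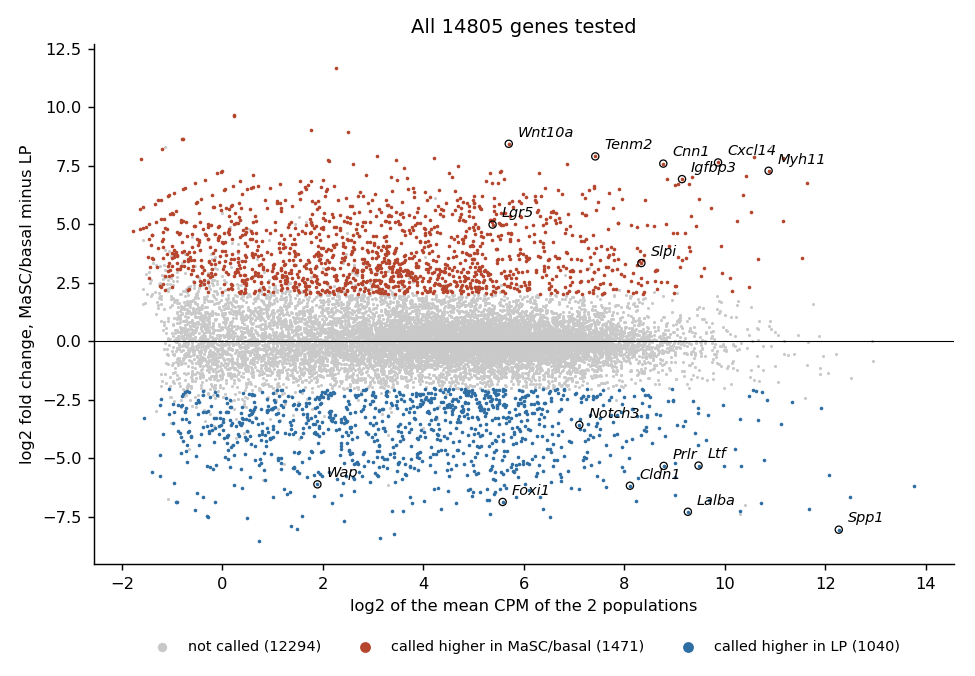
Log2 fold change (MaSC/basal minus LP) of each of the 14805 genes tested against the log2 of its mean CPM over both populations. The 1471 genes called higher in MaSC/basal cells (red) and the 1040 called higher in LP cells (blue) extend over the whole range of levels, and circled genes are described in the text.

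Outside the keratins and markers, the genes with the largest differences in favour of MaSC/basal cells at a mean of at least 5 CPM included genes for secreted, adhesion and signalling proteins. *Wnt10a*, which encodes a Wnt ligand, was at 106, 93.0 and 112 CPM in MaSC/basal and 0.106, 0.410 and 0.321 CPM in LP libraries (log2 fold change 8.43 ± 0.49, FDR = 7.97e-07). *Tenm2*, a teneurin that mediates cell adhesion, was at 289, 363 and 373 against 0.774, 2.03 and 1.34 CPM (log2 fold change 7.89 ± 0.62, FDR = 4.34e-06). The chemokine gene *Cxcl14* was at 1646, 2316 and 1614 against 2.99, 16.1 and 8.78 CPM (log2 fold change 7.63 ± 0.73, FDR = 1.48e-05). The LP libraries stayed far below the MaSC/basal libraries for all 3. *Vsnl1*, a neuronal calcium sensor, *Adamts20*, a secreted metalloprotease, *Cnn1*, calponin, *Cpa6*, a carboxypeptidase, *Tmem150c* and *Xkr4* completed the group, at log2 fold changes from 7.58 to 7.83. *Vsnl1* and *Tmem150c* had reads in LP cells only in LP replicate 2 (11 and 4 reads), so the size of their fold changes rests on that library. The remaining 3 were *Speer4e*, *Speer4d* and *Gm21190*, which have near-identical copies, so their counts are uncertain. *Speer4e* had no read in any LP library, and its MaSC/basal mean of 9.64 CPM was at least 89.9-fold higher, taking 3 reads in each LP library as the floor. *Wnt10a*, *Cxcl14*, *Adamts20*, *Cnn1* and *Xkr4* had log2 fold changes of 9.03, 8.31, 9.09, 8.26 and 8.49 without LP replicate 2. Over the other settings and the fits without 1 library, *Vsnl1* ranged from 7.23 to 12.83 and *Tmem150c* from 7.26 to 11.48. *Speer4e*, *Speer4d* and *Gm21190* ranged there from 9.19 to 11.75, from 8.10 to 11.24 and from 7.42 to 9.42.

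The matching genes in favour of LP cells included genes for milk, other secreted, surface and transport proteins. *Spp1*, osteopontin, a secreted phosphoprotein also found in milk, was at 34.9, 40.5 and 36.0 CPM in MaSC/basal and 9505, 13500 and 6538 CPM in LP libraries (log2 fold change -8.05 ± 0.68, FDR = 6.51e-06). *Lalba*, the α-lactalbumin subunit of lactose synthase, was at 6.15, 11.8 and 5.59 against 1282, 1430 and 959 CPM (log2 fold change -7.29 ± 0.77, FDR = 2.79e-05). *Cd177*, a surface glycoprotein best known from neutrophils, was at 0, 0.0396 and 0.0187 against 6.76, 5.42 and 4.66 CPM, with 0, 2 and 1 reads in the MaSC/basal libraries. The LP libraries stayed far above every MaSC/basal library for these 3 genes. *Dppa1*, *Pkib*, an inhibitor of protein kinase A, *Ceacam20*, *Lao1*, an L-amino acid oxidase, *Cck*, cholecystokinin, *Btn1a1*, a milk fat globule protein, and *Slc13a2*, a dicarboxylate carrier, had log2 fold changes from -8.40 to -7.26. The group was completed by an immunoglobulin κ variable gene and *Olfr550*, an olfactory receptor gene, which belong to families with near-identical members and their counts are uncertain. *Lao1* missed the threshold for a call without the filter on low counts or without each of the 6 libraries in turn (log2 fold change -6.70 to -7.83) and *Olfr550* without each MaSC/basal library in turn (log2 fold change -7.18 to -8.18). *Lalba*, *Dppa1*, *Lao1* and *Olfr550* had log2 fold changes of -7.87, -9.05, -8.12 and -8.26 with the batch as a block. *Dppa1* had a log2 fold change of -9.22 without MaSC/basal replicate 2. *Cd177* ranged from -8.88 to -7.46 over the other settings and the fits without 1 library.

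**Figure D2:**
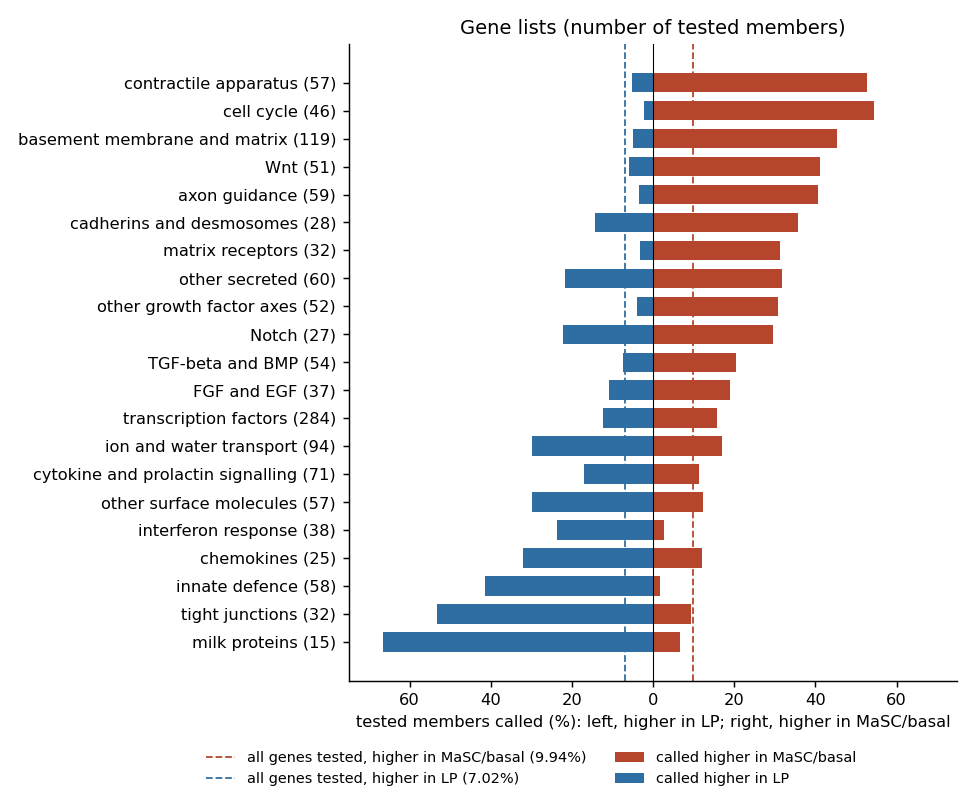
Share of the tested members of selected gene lists that were called higher in MaSC/basal cells (red, to the right) or in LP cells (blue, to the left), in percent, with the number of tested members in brackets and dashed lines at the shares of all genes tested (9.94% and 7.02%). Lists not drawn include those of metabolism, antigen presentation and the Hippo pathway. Contractile, cell cycle, matrix, Wnt and axon guidance genes lean to MaSC/basal cells, and milk protein, tight junction, innate defence and chemokine genes lean to LP cells.

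Genes of the contractile apparatus were far higher in MaSC/basal cells. Of 57 tested members, 30 were called higher in MaSC/basal and 3 in LP cells, with a median log2 fold change of 2.92. Among actin, myosin and their regulators the counts were 20 and 3 of 34. *Cnn1*, calponin, which restrains actomyosin, was at 650.5, 1240 and 728 CPM in MaSC/basal and 1.66, 7.58 and 4.12 CPM in LP libraries (log2 fold change 7.58 ± 0.61, FDR = 4.76e-06). *Myh11*, the smooth muscle myosin heavy chain, was at 2784, 4570 and 3833 against 7.53, 40.6 and 23.7 CPM (log2 fold change 7.28 ± 0.81, FDR = 3.96e-05), and *Actg2*, enteric smooth muscle actin, at 191, 284 and 219 against 0.810, 1.71 and 0.910 CPM (log2 fold change 7.57 ± 0.43, FDR = 6.6e-07). Each was higher in every MaSC/basal library than in any LP library, and for all 3 the highest LP value was in LP replicate 2. *Tpm2*, tropomyosin, *Myl9*, the regulatory light chain, *Mylk*, its kinase, *Tagln*, transgelin, and *Synpo2* had log2 fold changes from 6.13 to 6.99. The 3 members called higher in LP cells were *Mylk2*, the skeletal muscle light chain kinase (-5.19), *Ldb3*, a Z-disc protein (-4.42), and *Myh14*, a nonmuscle myosin of epithelia (-2.45). *Myh11* had a log2 fold change of 7.89 without LP replicate 2. *Mylk2* had a log2 fold change of -6.04 without MaSC/basal replicate 3.

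Of 16 tested genes of excitation and calcium handling, 9 were called higher in MaSC/basal cells. *Kcnmb1* and *Kcnma1*, subunits of the BK potassium channel, had log2 fold changes of 6.45 and 5.72. *Cacna2d1* and *Cacna1c*, subunits of voltage-gated calcium channels (6.18 and 4.44), and *Casq2*, a calcium store protein (6.01), were called in the same direction. *Oxtr*, the oxytocin receptor, was at 284, 719.7 and 248 CPM in MaSC/basal and 35.1, 16.01 and 32.1 CPM in LP libraries (log2 fold change 3.92 ± 0.46, FDR = 5.96e-05), without overlap. Of the factors that control smooth muscle genes, *Mef2c* was called higher in MaSC/basal cells (4.28). *Myocd*, myocardin, passed an FDR of 0.05 without a call (1.13, 2.25 and 1.35 against 0.0352, 0.0372 and 0.107 CPM, 4.87), and with one when the batch was a block (log2 fold change 6.39, FDR = 0.000129). In contrast, *Srf*, serum response factor, did not pass (264, 270.4 and 229.9 against 317, 139.7 and 387 CPM, FDR = 0.757). *Myocd* was also called with DESeq2 or in a fit of the 6 libraries alone (4.84 to 4.89). *Cacna2d1* and *Casq2* had log2 fold changes of 6.99 and 7.38 without LP replicate 2. *Oxtr* had a log2 fold change of 3.27 without MaSC/basal replicate 2.

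Serum response factor binds the CArG box, so promoters of the actin and myosin genes were searched for this motif on both strands. The window ran from 250 bases before to 50 after the annotated start (RefSeq, GRCm38.p6). Only the exact form CCWWWWWWGG, with A or T at each W, was counted. Of the 34 tested members, 29 had a promoter in the table, and 4 of these (13.8%) held a CArG box. The share was 1.58% of the 11182 tested genes with a promoter there, counting a gene if any of its promoters held the motif. The 4 were *Myl9* and *Cnn2*, called higher in MaSC/basal cells, *Myl6*, which was not called, and *Ldb3*, called higher in LP cells. Among members with a promoter, 2 of 17 (11.8%) called higher in MaSC/basal cells held the motif, and 1 of 2 called higher in LP cells. *Myh11*, *Actg2* and *Tagln* had no promoter in the table and were not searched. *Acta2* and *Cnn1* had no match to this exact form within this window, and forms that differ from it by a base were not searched. The 250 bases before the start of *Myl9* (chr2:156775214-156775463, plus strand) and of *Cnn2* (chr10:79988350-79988599, plus strand) are shown, since both genes were called higher in MaSC/basal cells, with the CArG box in capitals.
Myl9: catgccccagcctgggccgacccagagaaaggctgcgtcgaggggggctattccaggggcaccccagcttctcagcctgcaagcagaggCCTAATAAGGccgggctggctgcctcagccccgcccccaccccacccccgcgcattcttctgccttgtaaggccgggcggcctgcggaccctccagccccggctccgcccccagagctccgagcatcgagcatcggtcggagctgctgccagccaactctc
Cnn2: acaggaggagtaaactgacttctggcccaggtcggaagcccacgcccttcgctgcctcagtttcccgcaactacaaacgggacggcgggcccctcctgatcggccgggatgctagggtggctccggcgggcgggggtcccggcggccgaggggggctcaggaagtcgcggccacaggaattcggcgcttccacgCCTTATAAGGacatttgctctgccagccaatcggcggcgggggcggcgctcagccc
*Myl9* was at 787, 1108 and 862 CPM in MaSC/basal and 3.17, 11.99 and 7.28 CPM in LP libraries (log2 fold change 6.92 ± 0.66, FDR = 1.43e-05), and *Cnn2*, the calponin of nonmuscle cells, at 296, 320.2 and 264 against 28.4, 25.9 and 36.6 CPM (log2 fold change 3.28 ± 0.18, FDR = 4.91e-07). A match describes the letters of the window, not binding.

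Genes of the basement membrane and the surrounding matrix were mostly on the MaSC/basal side. Of 119 tested members, 54 were called higher in MaSC/basal and 6 in LP cells, with a median log2 fold change of 2.24. For laminins, basement membrane collagens and their partners the counts were 16 and 1 of 29. *Col17a1*, the hemidesmosomal collagen, was at 1130, 1399 and 1195 CPM in MaSC/basal and 6.48, 19.98 and 8.19 CPM in LP libraries (log2 fold change 6.73 ± 0.77, FDR = 4.55e-05). *Col4a1* and *Col4a2*, the main chains of collagen IV, had log2 fold changes of 5.15 and 5.53. Per kilobase of exon, *Col4a1* had a mean of 676 RPKM in MaSC/basal cells, above *Col17a1* at 229 RPKM and *Lama1*, a laminin α chain, at 108 RPKM. *Col7a1*, of the anchoring fibrils, and *Fras1*, an extracellular matrix protein, had log2 fold changes of 6.06 and 4.35. Endothelial cells also make collagen IV, and the endothelial marker *Pecam1*, higher in MaSC/basal cells as well, had a mean of 7.69 RPKM there. Its part in the collagen IV difference was not tested. *Npnt*, nephronectin, was called higher in LP cells (-2.89). *Col17a1*, *Col4a1*, *Col4a2* and *Col7a1* had log2 fold changes of 7.39, 5.76, 6.201 and 6.89 without LP replicate 2.

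Among interstitial and matricellular genes, *Col14a1*, a fibril-associated collagen (5.70), *Spon2* (5.39), *Spock2* (5.37), *Vcan*, the proteoglycan versican (5.36), and *Sparc* (4.92) were called higher in MaSC/basal cells. *Sparc*, a collagen-binding glycoprotein, was at 1298, 1385 and 1332 CPM in MaSC/basal and 17.9, 76.4 and 37.6 CPM in LP libraries. The fibroblast collagen gene *Col1a1*, in contrast, did not pass an FDR of 0.05 (FDR = 0.915). It was at 86.8, 122 and 143 CPM in MaSC/basal and 45.0, 233 and 96.2 CPM in LP libraries, where LP replicate 2 was the highest of all 6. The remodelling enzymes *Adamts20* and *Adamts18*, both secreted metalloproteases (7.83 and 6.28) and *Loxl3*, a lysyl oxidase (4.49), were called higher in MaSC/basal cells, and the membrane-bound *Mmp16* (-5.77) and *Mmp15* (-3.52) in LP cells. Of the interstitial and matricellular genes, *Col8a1* (-3.85), *Smoc1* (-3.76) and *Mfge8*, a milk fat globule protein (-2.84), were called higher in LP cells. *Col8a1* was not called without MaSC/basal replicate 2 or 3 (-3.69 to -3.81). *Mfge8* was not called without each MaSC/basal library in turn (-2.79 to -2.89). *Spon2*, *Vcan*, *Sparc* and *Adamts18* had log2 fold changes of 6.09, 6.08, 5.58 and 7.32 without LP replicate 2. *Col8a1* had a log2 fold change of -3.16 without LP replicate 3.

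Of 32 matrix receptors, 10 were called higher in MaSC/basal and 1 in LP cells. *Itga9*, an integrin for tenascin and osteopontin, was at 94.1, 132 and 84.5 against 1.13, 3.87 and 2.52 CPM (log2 fold change 5.33 ± 0.41, FDR = 3.55e-06), without overlap. *Sdc3*, a syndecan (4.91), *Itga1* and *Itga5*, collagen and fibronectin receptors (3.68 and 2.98), followed. *Itga6*, a laminin receptor also used to sort mammary cells, passed an FDR of 0.05 below the fold threshold (1.92). *Itgb6*, a luminal partner of αv, was the member called higher in LP cells (-2.02), though not with limma voom, without TMM scaling or without MaSC/basal replicate 1 or 2 or LP replicate 1 (log2 fold change -1.87 to -1.99). *Itga6* was called without TMM scaling or without MaSC/basal replicate 1 or LP replicate 2 (2.02 to 2.06). *Itga5* had a log2 fold change of 2.36 without MaSC/basal replicate 3.

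Cell contacts differed by type of junction. *Cdh3*, P-cadherin, was at 329, 353 and 323 CPM in MaSC/basal and 1.44, 6.33 and 2.41 CPM in LP libraries (log2 fold change 6.56 ± 0.58, FDR = 8.77e-06), and *Cdh2* and *Cdh13* were called in the same direction (4.79 and 4.21). *Cdh1*, E-cadherin, was lower in MaSC/basal cells below the fold threshold (log2 fold change -1.58 ± 0.19, FDR = 6.06e-05). Of the gap junction genes, *Gja1*, connexin 43, was called higher in MaSC/basal cells (3.99), and *Gjb2*, connexin 26, in LP cells (-4.48). *Pkp2*, a desmosomal plakophilin (-5.67), and *Nectin4*, an adhesion molecule (-4.64), were called higher in LP cells too. Across 28 cadherin, desmosome and gap junction genes, 10 were called higher in MaSC/basal and 4 in LP cells. *Cdh3* and *Cdh2* had log2 fold changes of 7.46 and 5.61 without LP replicate 2.

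The Wnt pathway, in which secreted ligands act through Frizzled and LRP receptors and induce their own feedback inhibitors, was represented on both sides by different ligands. Of 51 tested members, 21 were called higher in MaSC/basal and 3 in LP cells, at a median log2 fold change of 1.47. Besides *Wnt10a*, the ligand genes *Wnt6* (83.3, 60.5 and 33.9 against 1.16, 1.28 and 1.28 CPM) and *Wnt11* (43.8, 51.9 and 50.6 against 2.85, 2.01 and 1.55 CPM) were called higher in MaSC/basal cells. *Wnt4*, which acts downstream of progesterone, was at 5.38, 6.09 and 6.22 CPM in MaSC/basal, 15.9, 42.2 and 49.95 CPM in LP and 213, 236 and 218 CPM in ML libraries, and with *Wnt7b* and *Wnt5b* it was called higher in LP cells (-2.61, -2.80 and -2.56). So 3 ligands were called in each direction. *Wnt4* was highest in ML cells, and its call was lost without each MaSC/basal library in turn (log2 fold change -2.55 to -2.66).

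Of 21 Wnt receptors, 6 were called higher in MaSC/basal cells, and 15 were higher there at an FDR below 0.05, against 29.9% of all genes. *Lgr5*, an R-spondin receptor and stem cell marker of other epithelia, was at 61.0, 111 and 69.6 CPM in MaSC/basal and 2.29, 2.44 and 3.00 CPM in LP libraries (log2 fold change 4.98 ± 0.29, FDR = 7.28e-07). *Fzd2*, *Lgr4* and *Fzd7* had log2 fold changes from 2.52 to 2.63. *Ror2*, a receptor of noncanonical Wnt signals, was also called (2.97). *Procr*, the protein C receptor that marks a basal stem cell subset, was higher in MaSC/basal cells below the fold threshold (15.8, 15.9 and 42.9 against 5.84, 9.85 and 7.01 CPM, log2 fold change 1.71 ± 0.54, FDR = 0.0215), but not without MaSC/basal replicate 3 or LP replicate 1 or 3 (log2 fold change 1.05 to 1.64). Of 18 inhibitors and target genes, 12 were called higher in MaSC/basal cells. The secreted inhibitors *Wif1*, *Dkk3* and *Sostdc1* (6.47, 6.45 and 6.15) and the intracellular inhibitors *Nkd1* and *Nkd2* (6.77 and 5.88) were among them. *Axin2*, the usual readout of canonical signalling, was at 32.0, 27.5 and 18.2 against 2.29, 2.10 and 1.77 CPM (log2 fold change 3.65 ± 0.32, FDR = 7.67e-06), and *Tcf7*, a nuclear effector, had a log2 fold change of 4.58. Neither overlapped between the groups. *Tcf7l2* went the other way below the fold threshold (-1.60). *Ror2* was not called without MaSC/basal replicate 1 (2.78). *Wif1* and *Sostdc1* had log2 fold changes of 7.13 and 6.87 without LP replicate 2.

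**Figure D3:**
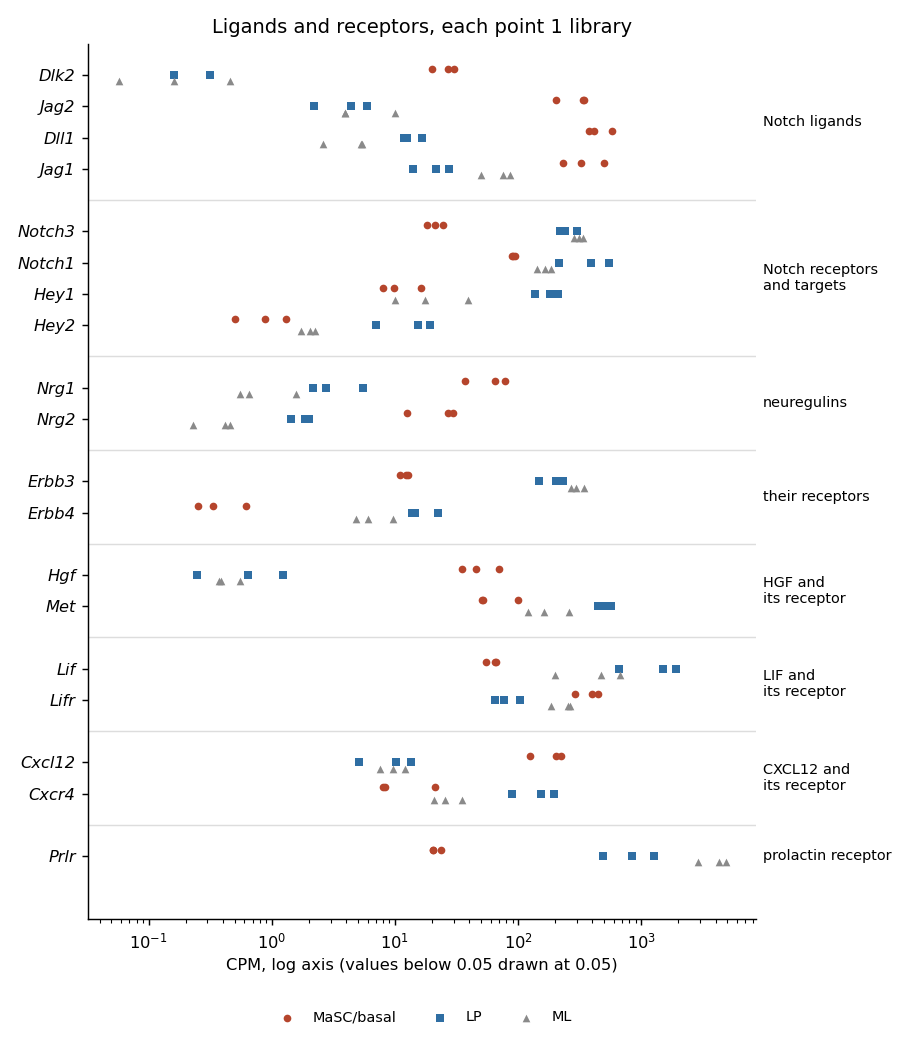
CPM of ligand and receptor genes on a log axis, each point 1 library of MaSC/basal (red circles), LP (blue squares) or ML cells (grey triangles). The Notch, neuregulin, HGF and CXCL12 ligands drawn sit higher in MaSC/basal libraries and their receptors drawn higher in LP libraries. *Lif* and *Lifr* show the opposite arrangement, and the receptor *Notch4* is not drawn.

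The Notch ligands called, which are membrane-bound and act on adjacent cells, were higher in MaSC/basal cells, and the Notch receptors called were higher in LP cells. The ligand gene *Jag2* was at 334, 342 and 204 CPM in MaSC/basal and 2.22, 5.90 and 4.39 CPM in LP libraries (log2 fold change 6.12 ± 0.51, FDR = 6.11e-06), *Dll1* at 376, 582 and 411 against 16.6, 12.4 and 11.9 CPM (log2 fold change 5.06 ± 0.32, FDR = 1.15e-06), and *Jag1* at 322, 230.1 and 499 against 14.1, 21.7 and 27.4 CPM (log2 fold change 4.06 ± 0.36, FDR = 9.66e-06). *Dlk2*, a non-canonical ligand, was also called higher in MaSC/basal cells (6.50). The receptor gene *Notch3* was at 18.1, 24.6 and 21.3 CPM in MaSC/basal, 302, 240.1 and 220.0 CPM in LP and 338, 314 and 284 CPM in ML libraries (log2 fold change -3.57 ± 0.18, FDR = 3.43e-07), and *Notch1* at 91.2, 94.4 and 89.1 CPM in MaSC/basal, 551, 214 and 392 CPM in LP and 165, 143 and 185 CPM in ML libraries (log2 fold change -2.07 ± 0.29, FDR = 0.000173). With the batch as a block, *Notch1* had log2 fold change -1.85, FDR = 0.000672 and fell short of the fold threshold, and it also missed the call with limma voom, without TMM scaling or without each MaSC/basal library in turn or LP replicate 1 (log2 fold change -1.74 to -2.09). Each of these ligands was higher in all MaSC/basal libraries and each of the 2 receptors in all LP libraries. The receptor *Notch4*, active in endothelium, was higher in MaSC/basal cells at an FDR below 0.05 without a call (1.18). The target genes *Hey1* and *Hey2* were called higher in LP cells (-3.95 and -3.95), and *Hey1* was also higher in LP than in ML cells (log2 fold change LP minus ML 2.98 ± 0.47, FDR = 0.00188). The target gene *Hes1* was called in the same direction (-2.33). *Lfng*, a fringe glycosyltransferase that modifies Notch (2.52), and *Numbl*, a relative of the inhibitor Numb (2.36), were called higher in MaSC/basal cells. Over the whole list of 27 tested genes, 8 were called higher in MaSC/basal and 6 in LP cells. The first count was 5 without MaSC/basal replicate 1 or LP replicate 2, and the second was 3 without MaSC/basal replicate 1 or 3 and without TMM scaling. *Hes1* was not called without TMM scaling, without the filter on low counts, in a fit of the 6 libraries alone or without MaSC/basal replicate 1 or 3 or LP replicate 2 or 3 (-2.11 to -2.33). *Lfng* was not called with limma voom, without the filter on low counts, with the batch as a block or without MaSC/basal replicate 1 or 2 or each LP library in turn (2.15 to 2.74).

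Of 54 TGF-β and BMP genes, 11 were called higher in MaSC/basal and 4 in LP cells, the latter 2 without MaSC/basal replicate 2. *Bmp7* was at 167, 162 and 119 CPM in MaSC/basal and 1.13, 3.69 and 2.19 CPM in LP libraries (log2 fold change 5.95 ± 0.44, FDR = 2.86e-06), and *Inhbb*, the activin B subunit, at 9.72, 11.4 and 11.9 against 294, 329.6 and 260.0 CPM (log2 fold change -4.74 ± 0.17, FDR = 6.56e-08). The 2 ligands were thus high in opposite populations without overlap. *Fst*, follistatin, which binds activins (4.08), *Id4*, an inhibitor of bHLH factors (5.56), and *Tgfbr3*, betaglycan (3.85), were called higher in MaSC/basal cells, and *Bmp2* in LP cells (-3.33). *Gdf11*, a ligand (3.80), *Smad6*, an inhibitory SMAD (2.33), and the secreted proteins *Fstl1* (3.29) and *Nbl1* (2.57) were called higher in MaSC/basal cells. *Tgfbr2*, a signalling receptor of TGF-β, did not pass an FDR of 0.05 (121, 117 and 169 against 152, 169.6 and 170.4 CPM, FDR = 0.188), except without MaSC/basal replicate 3 (log2 fold change -0.47). *Fstl1* was not called without LP replicate 3 (3.14).

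Of 37 genes of FGF and EGF signalling, 7 were called higher in MaSC/basal and 4 in LP cells, and neuregulins and their receptors were high in opposite populations. *Nrg1*, neuregulin 1, was at 65.4, 36.7 and 77.6 CPM in MaSC/basal and 2.75, 5.51 and 2.14 CPM in LP libraries (log2 fold change 4.07 ± 0.48, FDR = 5.53e-05), and *Nrg2* had a log2 fold change of 3.69. The neuregulin receptor gene *Erbb3* was at 12.3, 11.1 and 12.7 against 230.5, 148 and 201 CPM (log2 fold change -4.004 ± 0.19, FDR = 2.91e-07) and *Erbb4*, needed for milk production, at 0.253, 0.336 and 0.619 against 22.2, 13.8 and 14.5 CPM (log2 fold change -5.38 ± 0.43, FDR = 4.32e-06). Neither ligand nor receptor genes overlapped between the groups. Of the ligands of *Egfr*, *Ereg* and *Tgfa* were called higher in MaSC/basal cells (3.83 and 2.75). *Areg*, amphiregulin, was at 25.0, 23.9 and 29.4 CPM in MaSC/basal, 156, 351 and 448 CPM in LP and 1585, 1292 and 1216 CPM in ML libraries, and it and *Btc* were called higher in LP cells (-3.61 and -4.43). *Egfr* itself was higher in MaSC/basal cells at an FDR below 0.05 (142, 182 and 198 against 105, 102 and 109 CPM, log2 fold change 0.73 ± 0.19, FDR = 0.00757), below the fold threshold. *Fgfr4* was the fibroblast growth factor receptor called (5.00). *Spry1*, a feedback inhibitor of receptor tyrosine kinases, was called higher in MaSC/basal cells (2.96). *Fgfr4* had a log2 fold change of 5.72 without LP replicate 2.

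Of 52 genes of other growth factor axes, 16 were called higher in MaSC/basal and 2 in LP cells. *Hgf*, hepatocyte growth factor, was at 45.3, 34.9 and 69.5 CPM in MaSC/basal and 0.246, 1.23 and 0.642 CPM in LP libraries (log2 fold change 6.03 ± 0.48, FDR = 4.68e-06), and its receptor gene *Met* at 51.1, 51.6 and 100.1 against 568, 497 and 446 CPM (log2 fold change -2.90 ± 0.34, FDR = 6.04e-05). *Met* was also higher in LP than in ML cells (163, 257 and 119.5 CPM in ML, log2 fold change LP minus ML 1.49 ± 0.33, FDR = 0.0082). *Igfbp3* and *Igfbp2*, which bind insulin-like growth factors, had log2 fold changes of 6.92 and 6.32, and *Igfbp3* was at 887, 1095 and 1399 CPM in MaSC/basal and 3.27, 16.6 and 7.66 CPM in LP libraries. The neurotrophin gene *Bdnf* and the receptor genes *Ntrk3* and *Ngfr* were all called higher in MaSC/basal cells, at log2 fold changes from 4.56 to 5.79, as was *Vegfc* (3.37). *Angpt1*, a ligand of endothelial cells, was called higher in LP cells (1.57, 1.503 and 1.65 against 172, 156 and 150.2 CPM, -6.66). *Hgf*, *Igfbp3* and *Igfbp2* had log2 fold changes of 6.89, 7.69 and 7.26 without LP replicate 2.

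Axon guidance genes, whose products steer cells in many tissues, were mostly on the MaSC/basal side, with 24 of 59 called higher there and 2 in LP cells (median log2 fold change 1.77). *Ephb1*, an ephrin receptor, was at 39.2, 52.3 and 43.9 CPM in MaSC/basal and 0.141, 0.465 and 0.214 CPM in LP libraries (log2 fold change 7.19 ± 0.35, FDR = 3.11e-07). *Slit2* and its receptor gene *Robo2* were both called higher in MaSC/basal cells, with *Slit2* at 71.7, 83.0 and 82.5 against 0.986, 2.87 and 2.62 CPM and *Robo2* at 19.97, 16.3 and 34.3 against 0.176, 0.931 and 0.589 CPM. Ligand and receptor were therefore high in the same population. *Sema3b*, *Plxna4*, *Flrt1* and *Ephb2* had log2 fold changes from 4.26 to 5.32. The exceptions were *Ntn1*, netrin 1 (16.4, 18.3 and 17.4 against 479.7, 335 and 327 CPM, log2 fold change -4.45 ± 0.32, FDR = 2.54e-06), and *Sema4d* (-2.85), both called higher in LP cells. *Sema3a* was called higher in MaSC/basal cells (3.77). *Sema3a* was not called with limma voom, without the filter on low counts, in a fit of the 9 sorted libraries or without MaSC/basal replicate 1 or each LP library in turn (3.25 to 4.39). *Ephb1*, *Robo2* and *Ephb2* had log2 fold changes of 8.01, 6.03 and 5.30 without LP replicate 2.

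Cell cycle genes were higher in MaSC/basal cells, with 25 of 46 called higher there and 1 in LP cells (median log2 fold change 2.37). Their summed level was 2590 to 3590 CPM in MaSC/basal and 1280 to 1470 CPM in LP libraries. *Mki67*, the Ki67 antigen, was at 242, 175 and 190.1 against 43.0, 32.0 and 39.9 CPM (log2 fold change 2.40 ± 0.17, FDR = 1.85e-06) and *Top2a*, topoisomerase IIα, at 255, 206 and 211 against 30.4, 27.3 and 26.8 CPM (log2 fold change 2.99 ± 0.16, FDR = 4.03e-07). All MaSC/basal libraries were above all LP libraries for both, as for the sum. *Ccnd2*, cyclin D2, had the largest difference of the list (183, 247 and 132 against 1.62, 6.96 and 3.37 CPM, 5.51), and missed the threshold for a call without the filter on low counts or without MaSC/basal replicate 1 or 2 or LP replicate 1 or 3 (log2 fold change 5.13 to 5.53). *Cdk6* was the member called higher in LP cells (-2.04), though not with limma voom, without TMM scaling or without each MaSC/basal library in turn or LP replicate 1 (log2 fold change -1.86 to -2.14). *Ccnb1*, cyclin B1, and *Rrm2*, a subunit of ribonucleotide reductase, were called higher in MaSC/basal cells (3.84 and 3.74). *Ccnd2* had a log2 fold change of 6.25 without LP replicate 2.

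On the LP side, tight junction genes, which seal the luminal layer, were higher. Of 32 tested members, 17 were called higher in LP and 3 in MaSC/basal cells, with a median log2 fold change of -2.50. The second count was 1 without any of MaSC/basal replicates 1, 2 and 3 or LP replicates 1 and 3. *Cldn1*, a sealing claudin, was at 7.57, 5.95 and 9.15 CPM in MaSC/basal and 669, 472 and 497 CPM in LP libraries (log2 fold change -6.17 ± 0.33, FDR = 4.91e-07), and *Ocln*, occludin, at 2.12, 2.57 and 3.45 against 167, 141 and 136 CPM (log2 fold change -5.77 ± 0.22, FDR = 8.82e-08). The groups did not overlap for either. *Cldn2*, *Cldn7*, *Cldn4* and *Cldn3*, and the cytoplasmic proteins *Cgn* and *Tjp3*, had log2 fold changes from -5.76 to -5.17. *Tjp1*, ZO-1, differed far less (log2 fold change -0.54 ± 0.16, FDR = 0.0144) and missed an FDR of 0.05 without TMM scaling or without MaSC/basal replicate 1 (log2 fold change -0.39 to -0.45). *Cldn5*, the endothelial claudin, was higher in MaSC/basal cells (3.86, 3.22 and 6.86 against 0.246, 1.60 and 1.499 CPM, log2 fold change 2.05 ± 0.73, FDR = 0.0345), except without MaSC/basal replicate 1 or 3 or LP replicate 1 or 3 (log2 fold change 1.56 to 2.24). *Pard6g*, a polarity protein, and *Jam2*, a junctional adhesion molecule, were called higher in MaSC/basal cells (3.51 and 2.69). *Jam2* was not called without the filter on low counts or without each of the 6 libraries in turn (2.35 to 2.96).

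Milk protein genes were far higher in LP than in MaSC/basal cells of these virgin mice. Of 15 tested members, 10 were called higher in LP and 1 in MaSC/basal cells, with a median log2 fold change of -6.11. *Csn3*, κ-casein, was at 42.9, 43.9 and 51.0 CPM in MaSC/basal, 6234, 7860 and 5488 CPM in LP and 693, 1783 and 499 CPM in ML libraries (log2 fold change -7.15 ± 0.53, FDR = 2.92e-06). *Csn1s1*, an α-casein, was at 27.4, 26.7 and 29.9 against 2516, 5784 and 1728 CPM (log2 fold change -6.90 ± 1.13, FDR = 0.000512), and *Wap*, whey acidic protein, at 0.118, 0.0396 and 0.150 against 4.65, 12.6 and 4.66 CPM (log2 fold change -6.11 ± 0.78, FDR = 9.46e-05). All MaSC/basal libraries were below all LP libraries, although *Csn1s1* missed the threshold for a call without the filter on low counts or without each MaSC/basal library in turn or LP replicate 1 or 2 (log2 fold change -6.25 to -7.08). *Csn2*, β-casein, was at 24.9, 16.8 and 21.6 against 1705, 5161 and 1156 CPM, and it and *Csn1s2a* passed an FDR of 0.05 without being called (FDR = 0.00133 and 0.00115). With the batch as a block both were called (log2 fold change -7.59, FDR = 0.000346 for *Csn2* and log2 fold change -7.84, FDR = 0.000108 for *Csn1s2a*). Per kilobase of exon, the LP means were 4087 RPKM for *Csn3*, 2388 for *Csn2*, 1670 for *Lalba* and 13.0 for *Wap*. *Glycam1*, a glycoprotein of the milk fat globule membrane, did not pass (2.06, 0.850 and 8.75 against 1.09, 1.27 and 1.39 CPM, FDR = 0.117), except without MaSC/basal replicate 2 (log2 fold change 2.11). The member called higher in MaSC/basal cells was *Pthlh*, parathyroid hormone-related peptide, a hormone found in milk (22.4, 24.2 and 10.8 against 0.493, 0.410 and 0.535 CPM, log2 fold change 5.34 ± 0.57, FDR = 3.14e-05). *Csn2* was also called with DESeq2, with limma voom or in a fit of the 6 libraries alone (-6.64 to -6.99). *Csn1s2a* was also called with DESeq2, with limma voom or in a fit of the 6 libraries alone (-6.82 to -7.40). *Csn1s1* had a log2 fold change of -7.54 with the batch as a block. *Wap* had a log2 fold change of -5.46 without LP replicate 2.

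STAT5, the transcription factor that prolactin activates, binds TTCNNNGAA, so the promoters of the milk protein genes were searched for this motif over the same window, where its letters read alike on both strands. Of the 15 tested members, 11 were in the table, and 4 of these (36.4%) held the motif, against 8.32% of the 11182 tested genes in it. They were *Csn1s1*, which was called higher in LP cells, and *Csn2*, *Csn1s2a* and *Glycam1*, which were not called. *Csn2* and *Csn1s2a* were higher in LP cells at an FDR below 0.05, and *Glycam1* did not pass that threshold. Of the 6 members in the table that were called higher in LP cells, 1 (16.7%) held the motif. The 250 bases before the start of *Csn1s1* (chr5:87665958-87666207, plus strand) and *Csn2* (chr5:87699426-87699675, minus strand) are shown for the 2 caseins with the motif upstream of the start, with the motif in capitals.
Csn1s1: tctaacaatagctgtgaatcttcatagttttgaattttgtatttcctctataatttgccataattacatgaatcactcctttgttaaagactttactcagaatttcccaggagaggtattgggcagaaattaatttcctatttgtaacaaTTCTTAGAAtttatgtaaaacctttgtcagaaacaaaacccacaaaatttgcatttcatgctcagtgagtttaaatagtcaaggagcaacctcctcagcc
Csn2: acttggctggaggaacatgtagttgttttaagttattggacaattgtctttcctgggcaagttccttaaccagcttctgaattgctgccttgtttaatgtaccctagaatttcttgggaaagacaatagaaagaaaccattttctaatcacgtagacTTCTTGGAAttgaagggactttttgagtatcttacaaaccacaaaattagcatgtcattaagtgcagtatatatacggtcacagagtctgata
*Wap* and *Lalba* held no match in this window. *Stat5a* and *Stat5b* were higher in LP cells at an FDR below 0.05 (log2 fold change -0.50 ± 0.12, FDR = 0.00598 for *Stat5a* and log2 fold change -1.29 ± 0.20, FDR = 0.000296 for *Stat5b*). *Prlr*, the prolactin receptor, was at 23.6, 20.4 and 20.4 CPM in MaSC/basal, 485, 841 and 1258 CPM in LP and 4275, 2859 and 4864 CPM in ML libraries (log2 fold change -5.33 ± 0.39, FDR = 2.54e-06). Its level was lowest in MaSC/basal and highest in ML cells without overlap, and LP and ML cells also differed (log2 fold change LP minus ML -2.22 ± 0.34, FDR = 0.00164). Of 39 genes of fatty acid and cholesterol synthesis, 3 were called higher in LP cells, a share close to the 7.02% of all genes, namely *Scd1*, *Lpin1* and *Elovl7*. At an FDR below 0.05, 16 of the 39 were higher in LP and 5 in MaSC/basal cells, against 28.1% and 29.9% of all genes. *Scd1* missed the threshold for a call without each MaSC/basal library in turn (log2 fold change -4.24 to -4.25). *Scd1* had a log2 fold change of -3.56 without LP replicate 2.

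Innate defence genes formed the other large secreted group of LP cells. Of 31 tested secreted members, 18 were called higher in LP and 1 in MaSC/basal cells (median log2 fold change -3.72). The first count was 10 without MaSC/basal replicate 1. *Pigr*, which carries IgA into milk, was at 0.876, 0.633 and 0.656 CPM in MaSC/basal and 49.1, 76.5 and 50.9 CPM in LP libraries (log2 fold change -6.34 ± 0.58, FDR = 1.03e-05). *Ltf*, lactoferrin, an iron-binding antimicrobial, was at 18.9, 39.8 and 46.3 against 1699, 1441 and 1035 CPM (log2 fold change -5.31 ± 0.48, FDR = 9.76e-06), and *Lbp*, lipopolysaccharide-binding protein, at 23.5, 21.3 and 33.1 against 425, 543 and 292 CPM (log2 fold change -4.02 ± 0.52, FDR = 0.000106). The LP libraries were higher throughout, and *Lbp* missed the threshold for a call without MaSC/basal replicate 1 or 2 (log2 fold change -3.90 to -3.95). The mucin genes *Muc20* and *Muc1* (-6.29 and -5.33), *Wfdc3* (-6.26), and *Clu*, clusterin (-5.32), were called in the same direction. *Cd14*, a receptor of bacterial lipopolysaccharide, was at 14.5, 13.2 and 27.2 against 1030, 1232 and 770.1 CPM (-5.79), and its partner *Tlr4* at 2.01, 2.31 and 2.74 against 79.7, 52.4 and 62.1 CPM (-4.78). The RNA sensor *Ifih1* was called in the same direction (-3.78). The single secreted member called higher in MaSC/basal cells was *Slpi*, a leukocyte protease inhibitor, at 585, 602 and 584 against 65.7, 58.7 and 50.9 CPM (log2 fold change 3.34 ± 0.25, FDR = 3.04e-06).

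Cytokine genes were found on both sides. *Lif*, leukemia inhibitory factor, was at 54.4, 64.9 and 66.3 CPM in MaSC/basal and 1899, 1501 and 655 CPM in LP libraries (log2 fold change -4.45 ± 0.51, FDR = 4.76e-05), while its receptor gene *Lifr* was at 287, 445 and 401 against 65.0, 76.4 and 104 CPM (log2 fold change 2.21 ± 0.24, FDR = 2.84e-05). *Il33* (3.32, 4.13 and 4.55 against 72.3, 123 and 269 CPM, -5.27) and *Tnf* (5.39, 6.70 and 7.99 against 152, 103 and 102 CPM, -4.15) were called higher in LP cells. In the tumour necrosis factor family, *Tnfrsf11b*, osteoprotegerin (37.7, 30.8 and 31.0 against 0.141, 0.633 and 0.750 CPM, log2 fold change 6.03 ± 0.41, FDR = 1.81e-06), and *Edar* with its adaptor *Edaradd*, which act in skin appendage development (4.07 and 5.55), were called higher in MaSC/basal cells. *Tnfrsf11a*, the receptor RANK, did not pass an FDR of 0.05 (25.3, 34.2 and 27.8 against 44.5, 23.5 and 38.8 CPM, FDR = 0.357). *Nfkbia*, the inhibitor of NF-κB that NF-κB induces, was at 136, 192 and 166 against 1993, 1019 and 1382 CPM (log2 fold change -3.15 ± 0.29, FDR = 9.52e-06). *Jak3*, a receptor-associated kinase (-3.27), and *Nfkbiz*, a nuclear IκB protein (-2.38), were also called higher in LP cells, and *Socs1*, a feedback inhibitor (3.52), in MaSC/basal cells. Over this list of 71 genes, 8 were called higher in MaSC/basal and 12 in LP cells, and the first is close to the share of all genes. *Nfkbiz* was not called without each MaSC/basal library in turn (-2.31 to -2.44). *Il33* had a log2 fold change of -4.63 without LP replicate 3. *Edaradd* had a log2 fold change of 6.40 without LP replicate 2.

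Of 25 chemokine genes, 8 were called higher in LP and 3 in MaSC/basal cells, and the first count was 5 without MaSC/basal replicate 1 or 2 or LP replicate 1. The neutrophil attractants *Cxcl1* and *Cxcl2* were at 77.7, 97.5 and 79.0 against 1846, 1038 and 955 CPM (log2 fold change -3.92 ± 0.35, FDR = 1.01e-05) and 18.6, 20.01 and 24.1 against 550.5, 594 and 282 CPM (log2 fold change -4.51 ± 0.51, FDR = 4.27e-05). *Cxcl17* and *Cxcl15* had log2 fold changes of -5.26 and -4.65. *Cxcl12* was at 125, 202 and 221 CPM in MaSC/basal and 5.11, 13.4 and 10.2 CPM in LP libraries (log2 fold change 4.25 ± 0.38, FDR = 9.1e-06), and its receptor gene *Cxcr4* at 8.26, 21.0 and 8.00 against 194, 88.3 and 153 CPM (log2 fold change -3.55 ± 0.45, FDR = 8.92e-05). Ligand and receptor were again high in opposite populations. *Ackr4*, a scavenging receptor, was called higher in MaSC/basal cells (5.34). *Cxcr4* had a log2 fold change of -4.15 without MaSC/basal replicate 2.

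Interferon-stimulated genes leaned to LP cells, with 9 of 38 called higher there and 1 in MaSC/basal cells (median log2 fold change -0.85). The first count was 5 without MaSC/basal replicate 1 or 2. *Oas3* and *Oas2*, which sense viral RNA, had log2 fold changes of -4.01 and -3.74. *Ifitm3*, which restricts viral entry, went the other way (386, 458 and 391 against 36.4, 52.6 and 58.5 CPM, log2 fold change 3.07 ± 0.19, FDR = 9.8e-07). The MaSC/basal count was 3 with DESeq2 and 2 with limma voom, without TMM scaling, in a fit of the 6 libraries alone, with the batch as a block and without LP replicate 2. *Ifi44* (-3.47), *Trim30a* (-3.24) and *Rsad2*, viperin (-3.17), were called higher in LP cells. Class I and class II antigen presentation genes were called in 1 case of 21, *H2-Oa* (-5.02), which missed the threshold for a call without MaSC/basal replicate 2 (log2 fold change -5.17). Without the filter on low counts 2 were called. With the batch as a block, 1 was called higher in MaSC/basal and 1 in LP cells. At an FDR below 0.05, 13 of the 21 were higher in LP and 4 in MaSC/basal cells, against 28.1% and 29.9% of all genes. *Ifi44* was not called without MaSC/basal replicate 1 or 2 or LP replicate 1 or 2 (-3.12 to -3.46). *Rsad2* was not called without MaSC/basal replicate 1 or 2 (-2.89 to -3.12).

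Ion and water transport differed in both directions, with 28 of 94 genes called higher in LP and 16 in MaSC/basal cells. Of the channels, *Clic6* (-6.83), *Scnn1b*, a subunit of the epithelial sodium channel (-5.96), *Aqp5*, a water channel of glands (-5.48), *Kcnq1* (-5.43) and *Kcnn4* (-5.07) were called higher in LP cells. *Aqp5* was at 1.89, 3.42 and 1.39 CPM in MaSC/basal and 101, 88.5 and 109 CPM in LP libraries. *Kcnq5* (41.0, 50.02 and 50.2 against 0.106, 0.596 and 0.268 CPM, 7.001), *Kcnk2* (5.39) and *Aqp9*, which passes glycerol (5.36), were called higher in MaSC/basal cells. Of the carriers, *Atp6v1b1*, of the proton pump (-6.56), *Slc5a1*, for glucose (-6.30), and *Car2*, carbonic anhydrase 2 (-5.79), were called higher in LP cells. The insulin-responsive glucose carrier gene *Slc2a4* was at 50.04, 64.0 and 51.8 CPM in MaSC/basal and 1.13, 1.77 and 1.77 CPM in LP libraries (log2 fold change 5.15 ± 0.23, FDR = 1.85e-07). Of 27 tested genes of glycolysis and glucose handling, 18 did not pass an FDR of 0.05, 2 were called higher in MaSC/basal cells, *Slc2a4* and *Slc2a3*, another glucose carrier (4.76), and 1 was called higher in LP cells, *Aldoc*, aldolase C (13.0, 15.5 and 13.9 against 429.7, 442 and 349.8 CPM, log2 fold change -4.85 ± 0.33, FDR = 1.67e-06). Among carriers, *Slc1a3*, for glutamate (3.82), *Slc6a6*, for taurine (2.84), and *Slc16a3*, for lactate (2.73), were called higher in MaSC/basal cells, and *Slc28a3*, for nucleosides, in LP cells (-6.77). *Aldh1a3*, a retinaldehyde dehydrogenase, was called higher in LP cells (5.43, 7.67 and 8.81 against 236, 131 and 165 CPM, -4.60). Of the same group of retinoid, aldehyde and redox genes, *Gpx3*, a secreted glutathione peroxidase (-3.73), and *Dhrs3*, a retinal reductase (-2.68), were called higher in LP cells, and *Aldh1a1* (4.09) and *Gpx8* (2.44) in MaSC/basal cells. *Slc28a3* was not called without the filter on low counts or without each MaSC/basal library in turn or LP replicate 2 (-5.92 to -7.41). *Aldh1a1* was not called with limma voom, without the filter on low counts, with the batch as a block or without MaSC/basal replicate 1 or 2 or each LP library in turn (3.13 to 4.40). *Kcnq5* and *Aqp9* had log2 fold changes of 8.06 and 5.96 without LP replicate 2. *Slc28a3* had a log2 fold change of -7.42 with the batch as a block.

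Among 54 G protein-coupled and other surface receptors, 13 were called higher in MaSC/basal and 9 in LP cells. *Lpar3*, for lysophosphatidic acid (7.42, 8.50 and 6.56 against 0.0352, 0.223 and 0.107 CPM, 5.72), *Htr1d*, for serotonin (5.59), and *P2ry1*, for ADP (5.37), were on the MaSC/basal side. *Htr4*, another serotonin receptor (0.388, 0.257 and 0.356 against 6.90, 9.42 and 21.1 CPM, -5.19), *Gabrp*, a GABA receptor subunit (-5.01), and *Vipr1* (-4.07) were on the LP side. *Edn1*, endothelin 1, was at 2.33, 3.64 and 4.74 against 148, 49.3 and 205 CPM (log2 fold change -5.23 ± 0.52, FDR = 1.8e-05), and its receptor gene *Ednra* was also called higher in LP cells (-2.80). Of 29 nuclear receptors, 5 were called higher in LP cells, and 3 without LP replicate 3. *Esr1*, the oestrogen receptor, was at 11.1, 11.2 and 12.1 CPM in MaSC/basal, 35.1, 55.5 and 66.9 CPM in LP and 196, 154 and 204 CPM in ML libraries (log2 fold change -2.19 ± 0.22, FDR = 2.09e-05), and missed the threshold for a call without LP replicate 3. *Esrrg* (-4.18) and *Rora* (-2.49) were also called, and *Pgr*, the progesterone receptor, passed an FDR of 0.05 (21.2, 22.2 and 19.9 CPM in MaSC/basal, 44.9, 70.8 and 119 CPM in LP and 493, 301 and 531 CPM in ML libraries). All ML libraries were above all LP libraries for *Esr1* and *Pgr*. Both are markers of hormone-sensing mature luminal cells, as are *Prlr*, *Foxa1*, *Cited1*, *Areg*, *Wnt4* and *Ly6a*, and the part of such cells in the LP levels was not tested. *Pgr* was called without LP replicate 1 (-2.18). *Lpar3* had a log2 fold change of 6.78 without LP replicate 2.

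Of 438 transcription factors and cofactors in the list, 284 passed the filter, 45 were called higher in MaSC/basal and 35 in LP cells, and the median log2 fold change was 0.14. On the MaSC/basal side, *Lmo1*, a LIM-only cofactor, was at 101, 92.5 and 80.1 CPM in MaSC/basal and 0.282, 0.894 and 0.482 CPM in LP libraries (log2 fold change 7.24 ± 0.43, FDR = 8.22e-07). *Irx4*, an Iroquois homeobox gene, was at 154, 205 and 108 against 0.634, 1.47 and 0.910 CPM (log2 fold change 7.20 ± 0.55, FDR = 3.77e-06), and *Snai2*, Slug, at 118, 86.2 and 119.9 against 1.02, 3.46 and 1.28 CPM (log2 fold change 5.72 ± 0.48, FDR = 6.11e-06). For none of these did the groups overlap. *Trp73*, a relative of p53 and p63 (7.08), *Eya1* (5.80), *Bcl11b* (5.54), *Tshz2* (5.32), *Tbx2* (4.17) and *Etv4* (3.75) were called in the same direction. *Zeb1*, another regulator of epithelial-mesenchymal transition, did not pass an FDR of 0.05 (2.33, 2.29 and 3.67 against 2.11, 4.23 and 3.75 CPM, FDR = 0.47). Also called higher in MaSC/basal cells were *Sox11* (3.65), *Sox8* (2.78), *Foxj1*, of ciliated cells (2.88), *Foxm1*, of proliferating cells (2.03), *Arnt2* (3.87), *Mycn* (3.73), *Egr4* (4.94), *Maf* (3.06), *Meox1* (4.60) and the ETS factors *Elk3* and *Etv5* (2.37 and 2.27). *Sox8* was not called with limma voom, with the batch as a block or without MaSC/basal replicate 1 or 2 or each LP library in turn (2.19 to 2.89). *Foxj1* was not called without LP replicate 1 or 3 (2.66 to 2.76). *Foxm1* was not called with limma voom, with the batch as a block or without MaSC/basal replicate 1 or 2 or LP replicate 3 (1.90 to 1.99). *Egr4* was not called with limma voom, with DESeq2 size factors, without the filter on low counts, with a filter of 1 CPM, in a fit of the 6 libraries alone, with the batch as a block or without MaSC/basal replicate 1 or 2 or LP replicate 2 or 3 (4.40 to 5.30). *Lmo1*, *Snai2*, *Trp73* and *Sox11* had log2 fold changes of 7.94, 6.55, 8.30 and 4.37 without LP replicate 2. *Foxj1* had a log2 fold change of 2.26 without MaSC/basal replicate 2. *Egr4* had a log2 fold change of 6.47 without LP replicate 1.

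**Figure D4:**
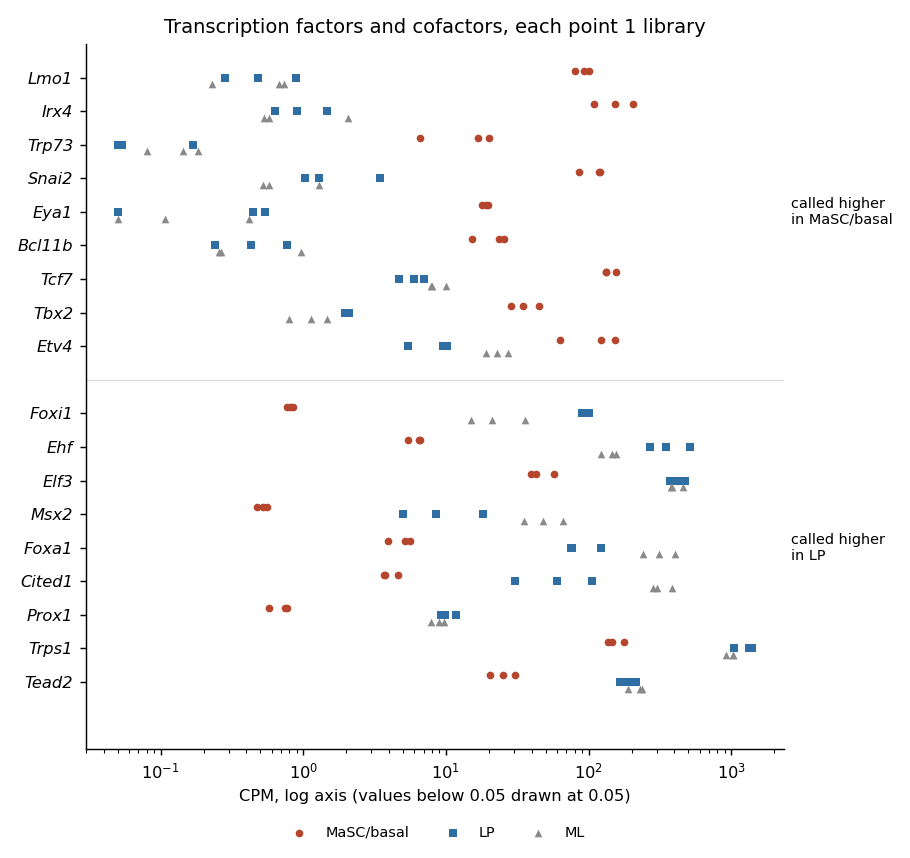
CPM of transcription factor and cofactor genes on a log axis, each point 1 library of MaSC/basal (red circles), LP (blue squares) or ML cells (grey triangles), with 9 genes called higher in MaSC/basal cells above and 9 called higher in LP cells below. *Foxi1* and *Ehf* are highest in LP libraries, while *Foxa1*, *Cited1* and *Msx2* are highest in ML libraries.

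On the LP side, *Foxi1*, a forkhead factor of ion-transporting cells, was at 0.775, 0.811 and 0.844 CPM in MaSC/basal, 101, 94.1 and 89.3 CPM in LP and 21.0, 35.6 and 14.9 CPM in ML libraries (log2 fold change -6.87 ± 0.34, FDR = 3.67e-07). The epithelial ETS factor gene *Ehf* was at 6.61, 5.42 and 6.45 CPM in MaSC/basal, 513, 268 and 351 CPM in LP and 147, 157 and 123 CPM in ML libraries (log2 fold change -5.94 ± 0.27, FDR = 2.16e-07). *Foxa1*, which opens chromatin for the oestrogen receptor, was at 5.16, 5.58 and 3.90 CPM in MaSC/basal, 75.02, 76.7 and 122 CPM in LP and 313, 242 and 403 CPM in ML libraries (log2 fold change -4.23 ± 0.28, FDR = 1.52e-06). LP levels were above all MaSC/basal levels for each gene. Against ML cells, LP cells were higher in *Foxi1* (log2 fold change LP minus ML 1.98 ± 0.27, FDR = 0.00111) and *Ehf* (log2 fold change LP minus ML 1.41 ± 0.22, FDR = 0.00192) and lower in *Foxa1* (log2 fold change LP minus ML -1.81 ± 0.25, FDR = 0.00122) and *Cited1* (log2 fold change LP minus ML -2.30 ± 0.37, FDR = 0.00219), a cofactor of the oestrogen receptor. *Prox1*, a homeobox factor of lymphatic vessels and liver, was at 0.573, 0.771 and 0.750 CPM in MaSC/basal, 9.22, 11.8 and 9.80 CPM in LP and 7.82, 8.87 and 9.70 CPM in ML libraries (log2 fold change -3.88 ± 0.23, FDR = 7.36e-07). *Elf3* (-3.17), *Msx2* (-4.33), *Ikzf1* (-4.26), *Npas2*, a clock factor (-5.01) and *Trps1* (-3.05) were called higher in LP cells. *Tead2* and *Tead4*, partners of YAP, were called in the same direction (-2.90 and -3.49), while *Tead1* and *Yap1* were higher in MaSC/basal cells at an FDR below 0.05 without a call (1.95 and 1.68). *Gata3*, a luminal regulator, passed an FDR of 0.05 below the fold threshold (74.8, 90.5 and 98.6 against 206, 177 and 174 CPM, log2 fold change -1.08 ± 0.16, FDR = 0.000257). The remaining factors called higher in LP cells by rank within their family were *Sox6* (-3.11), *Foxs1* (-3.21), *Bhlha15* (-2.90), *Grhl1*, of the grainyhead family (-2.50), *Nfe2l3* (-3.80), *Creb3l1* (-3.32), *Klf6* (-2.58), *Barx2* (-2.83) and *Plag1* (-3.70). Of the 39 HOX cluster genes, 35 did not reach the filter. *Tead1* was called without TMM scaling or without MaSC/basal replicate 1 (2.07 to 2.10). *Creb3l1* was not called without each MaSC/basal library in turn (-3.13 to -3.49). *Msx2* had a log2 fold change of -3.73 without LP replicate 3.

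Regulators of small GTPases and of the Hippo pathway, which couple cell shape to transcription, were called at shares near those of all genes, 6 and 5 of 42, but single members differed widely. *Rhov*, an atypical small GTPase, was at 3.19, 3.22 and 2.94 CPM in MaSC/basal and 309, 189.7 and 233 CPM in LP libraries (log2 fold change -6.29 ± 0.25, FDR = 1.05e-07), and *Dock8*, an activator of CDC42, at 5.28, 5.16 and 6.84 against 213, 205 and 168 CPM (log2 fold change -5.09 ± 0.30, FDR = 8.22e-07). *Arhgap24*, a GTPase-activating protein, was at 30.8, 27.8 and 35.2 against 0.563, 1.54 and 1.02 CPM (log2 fold change 4.85 ± 0.39, FDR = 5.02e-06). The LP libraries were higher throughout for the first 2 genes and lower for the last. *Msn*, moesin, which links actin to the membrane, was called higher in MaSC/basal cells (2.40), while its relative *Ezr*, ezrin, was lower there below the fold threshold (-0.96). *Arhgap20* and *Vim*, vimentin, an intermediate filament protein, were called higher in MaSC/basal cells (3.75 and 3.16), and *Wwc1*, KIBRA, an upstream Hippo component, in LP cells (-2.35). Of the genes of keratinocyte differentiation other than keratins, *Calml3* was called higher in MaSC/basal (4.21) and *Sprr1a* in LP cells (-3.83). *Ccn1*, a matricellular protein that is also an immediate early gene, was called higher in LP cells (-2.53). *Arhgap20* was not called without the filter on low counts, with the batch as a block or without each of the 6 libraries in turn (3.35 to 4.14). *Vim* was not called without MaSC/basal replicate 2 or 3 or LP replicate 3 (2.90 to 3.23). *Calml3* was not called without each of the 6 libraries in turn (4.02 to 4.35). *Sprr1a* was not called with limma voom or without each MaSC/basal library in turn (-3.46 to -3.93). *Ccn1* was not called without MaSC/basal replicate 1 (-2.47). *Sprr1a* had a log2 fold change of -3.16 with the batch as a block. *Sprr1a* had a log2 fold change of -3.03 without LP replicate 3.

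Surface molecules outside the sorting markers distinguished the populations in both directions, with 17 of 57 called higher in LP and 7 in MaSC/basal cells. *Pdpn*, podoplanin, was at 171, 187 and 188 CPM in MaSC/basal and 2.08, 5.79 and 3.64 CPM in LP libraries (log2 fold change 5.54 ± 0.35, FDR = 1.18e-06). *Bst1* (CD157) was at 3.91, 6.03 and 4.61 against 0.176, 0.149 and 0.107 CPM (log2 fold change 5.00 ± 0.31, FDR = 8.64e-07) and *Nt5e* (CD73) at 113, 152 and 120.5 against 1.83, 5.75 and 5.35 CPM (log2 fold change 4.89 ± 0.40, FDR = 5.67e-06). All 3 were without overlap, as were *Lrp1* (3.56) and *Vcam1* (3.03). *Cd55*, which protects cells from complement, was at 4.31, 5.22 and 7.31 against 165, 252 and 152 CPM (log2 fold change -5.08 ± 0.29, FDR = 7.25e-07) and *Ceacam1* at 23.3, 15.7 and 43.1 against 810.0, 984 and 1201 CPM (log2 fold change -5.19 ± 0.44, FDR = 6.82e-06). *Ly6d*, a small GPI-anchored protein, was at 4.48, 5.69 and 4.22 CPM in MaSC/basal, 101, 135 and 199.9 CPM in LP and 908, 521 and 782 CPM in ML libraries (log2 fold change -4.92 ± 0.32, FDR = 1.43e-06). These were higher in every LP library. *Trf*, transferrin, kept on this list of surface genes although it is secreted (-6.21), *Enpp3* (-4.91), *Cd82* (-4.11), *Anpep*, CD13 (-3.19), and *Ly6a*, Sca1 (-2.74), were called in the same direction. *Thy1* did not pass an FDR of 0.05 (5.31, 6.29 and 9.71 against 1.30, 7.02 and 2.73 CPM, FDR = 0.184), except without LP replicate 2 (log2 fold change 1.82).

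**Figure D5:**
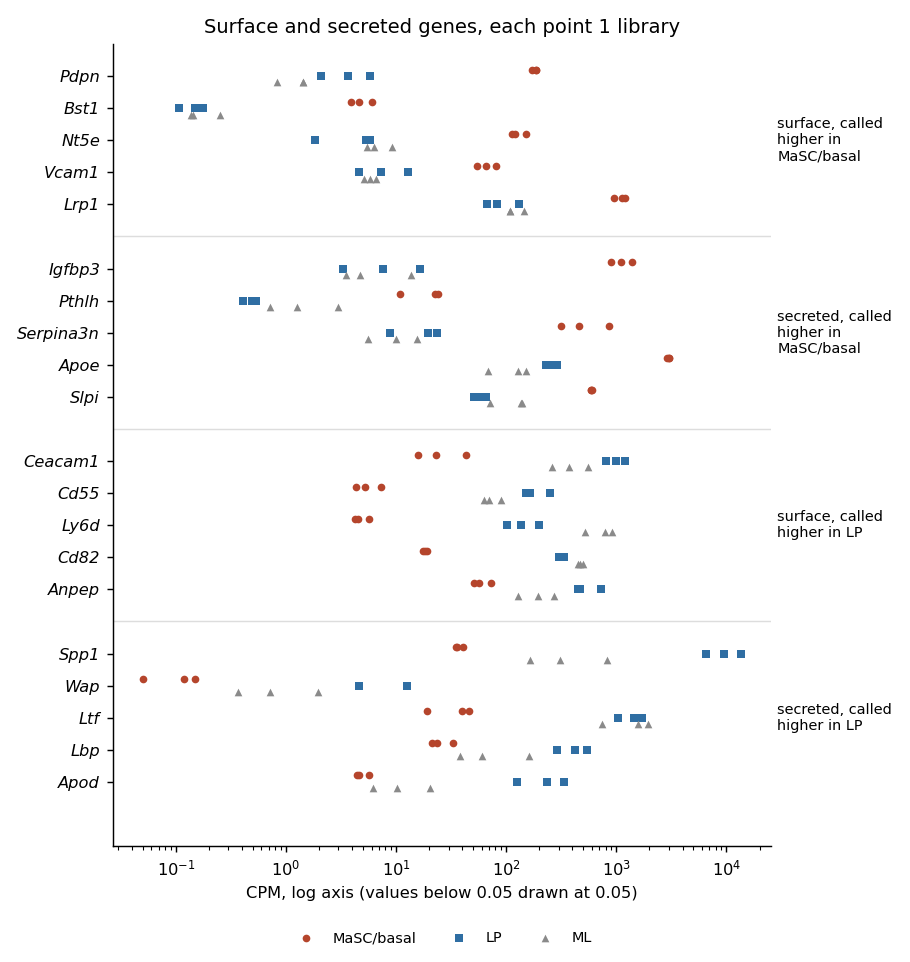
CPM of surface and secreted genes on a log axis, each point 1 library of MaSC/basal (red circles), LP (blue squares) or ML cells (grey triangles). The upper 10 genes were called higher in MaSC/basal cells and the lower 10 were called higher in LP cells, with no overlap between the 3 libraries of each.

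Of 60 other secreted genes, 19 were called higher in MaSC/basal and 13 in LP cells. *Vwa2* and *Vwa1*, matrix-associated proteins (5.70 and 5.40), *Lgals7* and *Lgals1*, galectins (5.49 and 4.63), and *Ccn2*, a matricellular growth factor (3.06), were called higher in MaSC/basal cells. *Serpina3n*, a protease inhibitor, was at 461, 317 and 855 CPM in MaSC/basal and 8.73, 19.7 and 23.8 CPM in LP libraries (log2 fold change 4.97 ± 0.55, FDR = 4.03e-05), and *Apoe*, apolipoprotein E, at 3010, 3000 and 2894 against 288, 230.1 and 253 CPM (log2 fold change 3.53 ± 0.28, FDR = 4.32e-06). The groups did not overlap for either. *Apod*, apolipoprotein D, was at 4.47, 5.63 and 4.61 CPM in MaSC/basal and 235, 337 and 124 CPM in LP libraries (log2 fold change -5.57 ± 0.52, FDR = 1.17e-05), with LP libraries higher throughout. *Lgals3* (-5.07), *Ccn5* (-4.74), and *Stc2*, stanniocalcin 2 (-4.21), were called higher in LP cells. Members of the galectin and CCN families were thus called in both directions. *Vwa2* had a log2 fold change of 6.68 without LP replicate 2.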

How the data were processed

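Total RNA of freshly sorted cells was sequenced as single-end reads from TruSeq RNA libraries, which do not keep the strand, so a gene and an overlapping antisense gene cannot be told apart. The authors aligned the reads to mm10 (GRCm38) with Rsubread and deposited raw counts per Entrez gene from featureCounts, with the exon length of each gene, without a filter on low counts. CASAVA 1.8.0, edgeR 3.6.2 and limma 3.20.5 are also named in the submitters' processing notes. Symbols were matched by Entrez gene for 25275 of 27179 genes.

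Counts of all 11 libraries were fitted with edgeR 4.0.16 (R 4.3.3; robust quasi-likelihood test, TMM scaling, 1 mean for each of the 5 sample types) after keeping genes over 0.5 CPM in at least 3 of the 6 MaSC/basal and LP libraries, and the MaSC/basal minus LP contrast was tested. All sample types shared 1 estimate of the spread for each gene. It came from the 9 sorted libraries, since each cultured type had 1 library and its own mean and so added none. The authors fitted limma linear models with observation weights to TMM-scaled values. The quasi-likelihood test was used here because the files hold counts, with limma voom as an alternative. RPKM values divide TMM-scaled CPM by the exon length in kilobases. The SE is the log2 fold change divided by the square root of the F statistic. It includes the spread between libraries estimated in the fit. Depth ran from 19958838 to 60517657 reads among the 6 libraries, and floors of reads cover counting error only. All values come from 3 libraries in each group, for which an exact two-sided permutation test cannot go below p = 0.1, so single genes were tested only in the fit over all genes. The 3 libraries of a population differed by more than sampling noise in every pair.

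The groups come from the titles, and replicates are numbered in accession order. Libraries of the same batch deviated from their population means with correlations of -0.13 to 0.53 across genes in 9 pairs, mostly positive. Pairs from different batches were not compared, so a shared part of the batch was not tested. The batch was a block only in an alternative fit. The alternatives were DESeq2 1.42.0, limma voom 3.58.1, DESeq2 size factors, no TMM scaling, no filter, over 1 CPM, fewer libraries in the fit, the batch as a block and each library left out. The scripts were tested on simulated data.

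The gene lists and the genes described were chosen with earlier results of these data known. Named genes are the lineage markers, the 12 largest called differences in each direction (mean of at least 5 CPM in the higher population, groups without overlap, no keratins), the 3 largest of a list's role in each direction, and further list members chosen after their values were seen. Keratins and sorting markers were otherwise left out, 4 genes that the rule gives are not reported here, and 1 is described without its symbol. The rule takes genes without overlap, so their lack of overlap is fixed by the choice. Promoter sequences came from a RefSeq table of GRCm38.p6, the build family of the counts.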

Additional observations from a re-analysis of the deposited data

How the results depend on the processing

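The 2511 calls became 2319 to 2767 under the other tools, scalings, filters and sets of libraries in the fit, and 2127 to 2274 when 1 library was left out. At an FDR below 0.05 the 8590 genes became 8088 to 9410, and 7531 to 8420 with 1 library left out. Of the calls, 2099 to 2510 were shared with each alternative in the same direction. The highest count came from DESeq2 (2767, of which 2510 shared). Without TMM scaling, the median log2 fold change of all genes moved from -0.002 to 0.153, and 60.8% of the genes at an FDR below 0.05 were higher in MaSC/basal cells, against 51.6% with it.

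With the batch as a replicate block, 2496 genes were called, of which 2326 were shared, and 8714 passed an FDR of 0.05. Among the genes named, the calls it changed are those given in the paragraphs of *Notch1*, *Lfng*, *Csn2*, *Csn1s2a*, *Myocd*, *Aldh1a1*, *Sox8*, *Foxm1*, *Egr4* and *Arhgap20*.

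Of 5220 values of the 348 named genes under the alternatives, 5191 kept their direction and side of an FDR of 0.05. Most of these genes were chosen past the stricter threshold for a call, so this count does not measure how stable the calls were. Calls that were lost are given in the paragraphs of their genes. The direction reversed in 7 of the values, all of genes that did not pass. *Col1a1* had a log2 fold change of 0.20 with limma voom, 0.052 without TMM scaling, 0.08 without MaSC/basal replicate 1 and 0.72 without LP replicate 2, and ranged from -0.50 to 0.72 when 1 library was left out. *Srf* had 0.007 without TMM scaling, 0.35 with the batch as a block and 0.15 without LP replicate 3, and ranged from -0.48 to 0.15 when 1 library was left out. The cause was not tested. Of 2580 list counts, 2425 stayed within 1.5 times. At 0.5 CPM, LP replicate 3 held 9.98 reads of a gene, so differences among genes near that level were the least precise.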
